A study of Mus musculus with 12 samples.

Results

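Myelin is the lipid-rich membrane that oligodendrocytes, the myelinating glia of the central nervous system, wrap around axons, and in the cerebellum it fills the white matter and reaches into the granular layer. A small set of proteins holds its layers together. Some lie in the compacted turns, others in the cytoplasm-filled rims, at the contact with the axon or on the outer surface, and their transcripts are standard markers of mature oligodendrocytes. Described here are 8 of these genes: Mbp, Mobp, Cldn11, Mal, Cnp, Mag, Mog and Opalin. The rule that chose them takes structural myelin proteins of mature oligodendrocytes by name and holds no threshold on a measured value. All 8 had a row among the 7667 named gene rows of the deposited table.

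The study measured cerebellar RNA of fxSCA7 92Q mice, a model of spinocerebellar ataxia type 7 in which ataxin-7 carries a stretch of 92 CAG repeats, and of wild-type littermates with a repeat of normal length. Both genotypes were taken at 12 and at 29 weeks of age, which gives 4 conditions. Each had 3 libraries and each library pooled 3 mice, 12 libraries in all. No label names the promoter that drives the expanded allele or the cells that express it. The level of Atxn7 was not used here, and the genotype labels therefore have no check from the targeted gene.

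The deposited table holds 1 whole number per gene and condition, a normalized score whose unit is not stated. The 3 libraries had therefore been combined, the spread between them is not known, and the depth behind a value is unknown. No comparison below has a replicate check or a test, and "higher" and "lower" describe these 4 numbers alone. Since it is not stated whether the score is per transcript length, levels are compared between conditions and not between genes. Ratios are log2 ratios of the value plus 1. The range that rounding to whole numbers leaves was found by moving each value by 0.5. Fewer oligodendrocytes and less RNA per oligodendrocyte cannot be told apart in whole tissue. The 12-week libraries are numbered L2409 to L2416 in their titles and the 29-week libraries L2312 to L2363, of which 1 library of 92Q, L2312, lies apart from the next, L2358, so age and library series cannot be told apart. The pools also differed in sex-linked transcripts: Xist was 66 and 63 in wild type at 12 and 29 weeks against 30 and 25 in 92Q, and the Y-linked Eif2s3y was listed at 0 and at 6 against 12 and 15. The part of either in the myelin values was not tested.

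A start site with sequence in the RefSeq promoter table (GRCm38.p6, the assembly of mm10) was found for 7 of the 8 genes, all but Mbp. The bases before the start of 4 of them are shown because these 4 hold the ends of the range at 29 weeks: Opalin, Mog and Mag had the largest differences between genotypes at that age and Mobp the smallest. Capitals mark matches, on either strand, to ACAAAG, a core of SOX factor sites, or to CTGGCAC or CTGGTAC, 2 spellings of the site of the myelin regulatory factor MYRF. No 2 of these matches overlapped. Opalin is shown from chr19:41077114-41077363 (minus strand), Mog from chr17:37023399-37023648 (minus), Mag from chr7:30914923-30915172 (minus, the most upstream of 3 starts in the table) and Mobp from chr9:120149492-120149706 (plus, without the 35 bases next to the start that GENCODE M21 counts as exon).
Opalin: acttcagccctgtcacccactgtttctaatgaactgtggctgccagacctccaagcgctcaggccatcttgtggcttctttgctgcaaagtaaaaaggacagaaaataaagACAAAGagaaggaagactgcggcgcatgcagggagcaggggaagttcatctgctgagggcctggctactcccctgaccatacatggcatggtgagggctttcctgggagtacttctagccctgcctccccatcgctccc
Mog: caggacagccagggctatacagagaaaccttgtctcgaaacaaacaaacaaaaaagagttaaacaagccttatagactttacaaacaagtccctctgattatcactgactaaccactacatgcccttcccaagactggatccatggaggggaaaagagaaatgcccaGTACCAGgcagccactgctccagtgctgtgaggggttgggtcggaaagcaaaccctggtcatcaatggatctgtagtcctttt
Mag: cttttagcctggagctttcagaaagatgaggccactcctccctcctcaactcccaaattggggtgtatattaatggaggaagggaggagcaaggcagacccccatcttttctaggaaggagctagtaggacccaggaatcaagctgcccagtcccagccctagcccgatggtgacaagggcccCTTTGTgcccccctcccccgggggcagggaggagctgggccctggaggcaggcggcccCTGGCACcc
Mobp: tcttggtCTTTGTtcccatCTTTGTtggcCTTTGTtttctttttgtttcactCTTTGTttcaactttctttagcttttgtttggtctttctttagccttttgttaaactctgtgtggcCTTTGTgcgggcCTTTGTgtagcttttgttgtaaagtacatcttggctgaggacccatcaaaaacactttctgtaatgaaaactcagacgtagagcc

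In the 250 bases before the start, ACAAAG was found in 4 of the 7 genes (Opalin, Mag, Mobp and Cnp), against 16.5% of the 32851 promoters of the table. Mobp held 6 matches, and it was the 1 promoter of the whole table with that many. CTGGCAC stood in 2 of 7 (Mag and Cnp; 4.19% of all promoters) and CTGGTAC in 1 of 7 (Mog; 1.83%). The E-box CAGCTG and the TATA box TATAAA were in 0 of 7, against 13% and 12.4% of all promoters. Cldn11 and Mal held none of the 5 motifs in this window. A match is a run of letters and not evidence of binding.

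All 8 genes had their highest value in 92Q at 29 weeks (7 of 8 after quantile normalization, which makes Mbp equal in all conditions). Over all 7667 genes, 26.2% were highest in that condition. The lowest value was spread over the other conditions: 29-week wild type for Mog, Mag and Cnp, 12-week 92Q for Mbp, Mobp and Cldn11, 12-week wild type for Opalin, and for Mal a tie of 12-week 92Q and 29-week wild type.

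**Figure D1:**
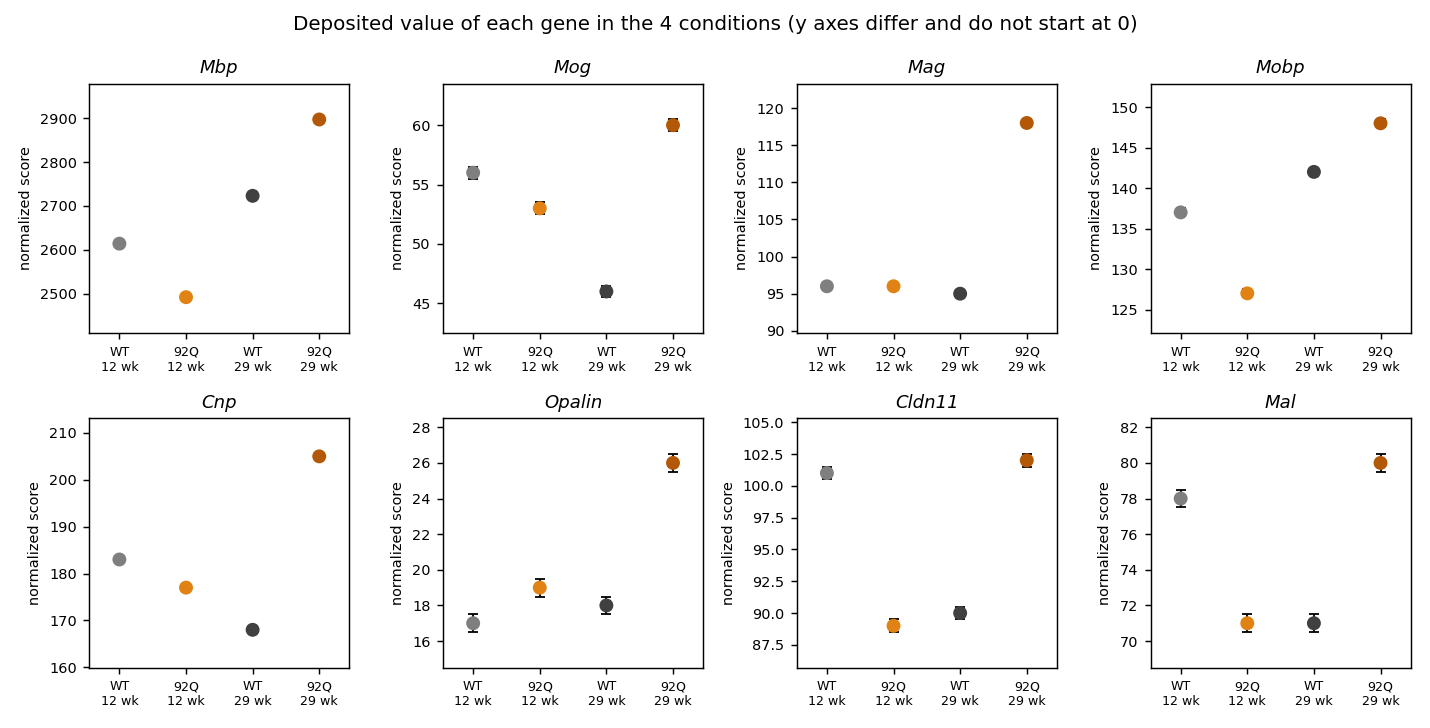
Deposited normalized score (y axis, a separate scale for each gene that does not start at 0) of the 8 myelin genes in the 4 conditions (x axis: WT, wild type, and 92Q at 12 and 29 weeks); each point is the authors' 1 value for a condition and the bars show the 0.5 that rounding leaves, not replicate error. The rightmost point, 92Q at 29 weeks, is the highest in all 8 panels, by a wide step for Mag (118 against 95 to 96) and by 1 unit for Cldn11 (102 against 101).

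The first genes are those of the compacted myelin layers. Mbp encodes myelin basic protein, which binds the cytoplasmic faces of the membrane together. Mbp (chromosome 18) was 2614 in wild type and 2492 in 92Q at 12 weeks, and 2723 and 2897 at 29 weeks. The difference from wild type was thus -4.67% at 12 weeks (log2 ratio -0.07) and 6.39% at 29 weeks (0.09). Mobp, which encodes another small basic protein of compact myelin, was 137 and 127 at 12 weeks and 142 and 148 at 29 weeks, with log2 ratios of -0.11 and 0.06. These 2 genes had the smallest genotype ratios of the 8 at 29 weeks, and they are the 2 of the 8, beside Opalin, whose wild-type value was higher at 29 than at 12 weeks. Mobp lies on chromosome 9 at 120149707 to 120181484 (mm10, GENCODE M21) and shares exon bases with the transcript Gm38642 on the same strand.

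Cldn11 and Mal encode proteins that cross the membrane several times. Claudin-11 forms the tight junctions between myelin turns, and Mal is a proteolipid of cholesterol-rich membrane domains. Cldn11 (chromosome 3, 31149920 to 31164324) was 101 in wild type and 89 in 92Q at 12 weeks, and 90 and 102 at 29 weeks. Its log2 ratios were -0.18 at 12 weeks, the lowest of the 8, and 0.18 at 29 weeks. Mal (chromosome 2, 127633226 to 127656695) was 78 and 71 at 12 weeks and 71 and 80 at 29 weeks, with ratios of -0.13 and 0.17. In both genes 12-week wild type and 29-week 92Q lay within 2 units of each other, and the other 2 conditions were lower and within 1 unit of each other.

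Cnp encodes the enzyme CNPase of the cytoplasm-filled myelin channels. It lies on chromosome 11 at 100574904 to 100591729. Its values were 183 in wild type and 177 in 92Q at 12 weeks, and 168 and 205 at 29 weeks (log2 ratios -0.05 and 0.29). An exon of Cnp overlaps one of Dnajc7 on the opposite strand, and no source used here says whether the counting used strand. Dnajc7 was 39 and 37 at 12 weeks and 34 and 36 at 29 weeks (log2 ratios -0.07 and 0.08), the same directions as Cnp. The part of such reads in the Cnp values was not tested.

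Mag, Mog and Opalin are surface glycoproteins of the oligodendrocyte. Mag binds the axon from the innermost myelin turn, Mog sits on the outermost surface of the sheath, and Opalin is a small glycoprotein of the oligodendrocyte membrane. Mag (chromosome 7, 30899176 to 30914873) was 96 in both genotypes at 12 weeks, and 95 in wild type against 118 in 92Q at 29 weeks (0.31). Mog (chromosome 17, 37010743 to 37023398) was 56 and 53 at 12 weeks, and 46 and 60 at 29 weeks (-0.08 and 0.38). Mog had the lowest ratio of the 8 with age in wild type, -0.28, so a lower wild-type value as well as a higher 92Q value enters its 29-week ratio. Opalin (chromosome 19, 41061710 to 41077113) was 17 and 19 at 12 weeks and 18 and 26 at 29 weeks. Opalin was the 1 gene of the 8 above wild type at both ages (0.15 and 0.51), but its values are the smallest, and rounding alone leaves 0.08 to 0.23 for the first ratio and 0.44 to 0.57 for the second.

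At 12 weeks the genotype comparison gave small differences. Of the 8 genes 6 were lower in 92Q (36.7% of 7660 genes compared were), Opalin was higher (32.1% were) and Mag was equal. At a 1.1-fold difference 1 was lower, Cldn11 (8.02% of all genes), and 1 higher, Opalin (4.5%). The median log2 ratio of the 8 was -0.07, against 0.00 over all genes. After upper quartile scaling of the columns it was -0.0390, against 0.0324 over all genes.

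At 29 weeks all 8 were higher in 92Q by more than rounding leaves. Of the 7666 genes compared, 2078 were higher and 1112 lower by more than rounding leaves. By any amount 49.5% were higher and 26.1% lower. At least 1.1-fold higher were 6 of 8, all but Mbp and Mobp, against 15% of all genes, and 0 of 8 were 1.1-fold lower (8.47%). At least 25% higher on this scale were 2 of 8, Opalin and Mog, against 2.01% of all genes, and none reached 1.5-fold (0.535%). The median log2 ratio of the 8 was 0.23, with an SD over the genes of 0.15 and a range from 0.06 to 0.51, beside a median of 0.00 over all genes. Opalin lay above 99.3% of all genes, Mog above 98.6%, Mag above 98.0% and Cnp above 97.2%, while Cldn11 and Mal lay above 91.5% and 90.5%, Mbp above 71.0% and Mobp above 60.4%. Under quantile normalization Mbp, the highest value in every column, was equal in both genotypes by construction, and the other 7 stayed higher.

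**Figure D2:**
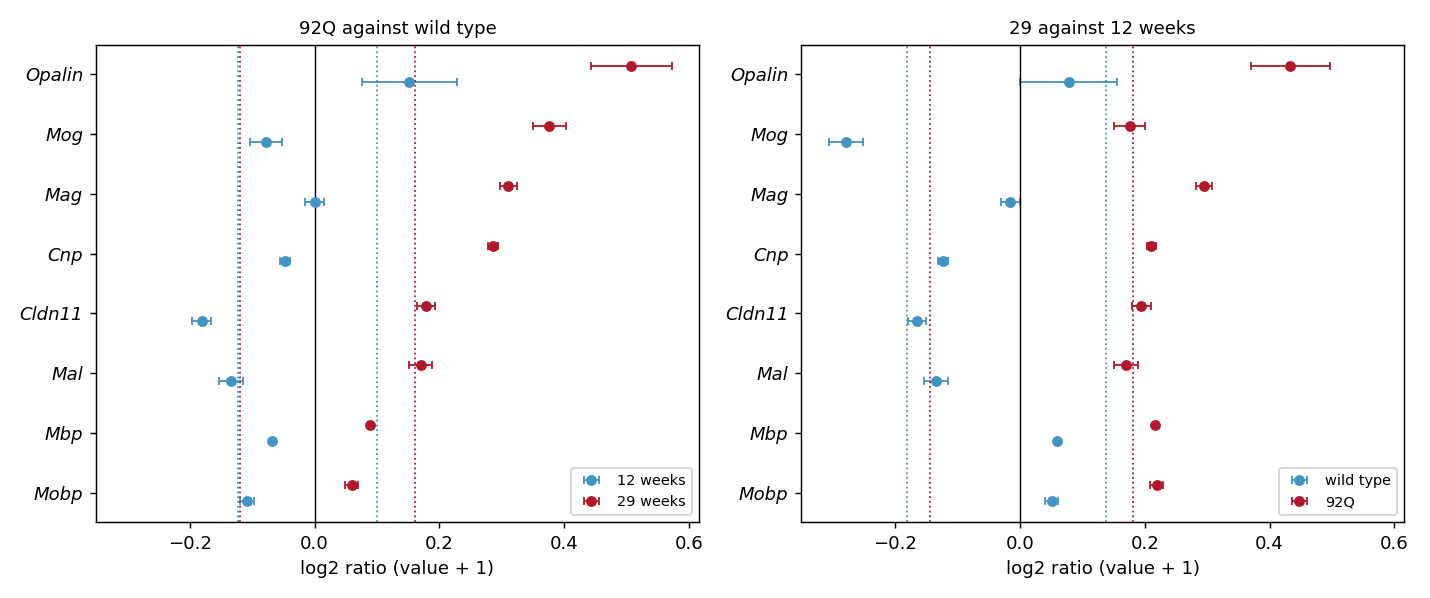
Log2 ratios of the 8 genes (x axis, value plus 1; y axis, genes in order of the 29-week genotype ratio): left, 92Q against wild type at 12 (blue) and 29 weeks (red); right, 29 against 12 weeks in wild type (blue) and 92Q (red). Bars are rounding ranges, and dotted lines are the 10th and 90th percentile of all genes in the colour of the comparison. Each gene's red point lies to the right of its blue point. The gap between them is the same quantity in both panels, so the right panel is not a separate observation of it. The red points of the right panel lie between 0.17 and 0.43.

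The ages were then compared within each genotype; these ratios use the same 4 columns as the genotype ratios and are not separate measurements. In 92Q all 8 were higher at 29 than at 12 weeks (42.4% of 7667 genes were), all 8 by at least 1.1-fold (15.2%) and 1, Opalin, by at least 25% (3.6%). The median was 0.21. The ratios of the genes other than Opalin lay close together, from 0.17 for Mal to 0.29 for Mag, with an SD of 0.04, and Mbp and Mobp, which had the smallest genotype ratios at 29 weeks, were at 0.22 each. In wild type 5 of 8 were lower at 29 weeks (45.9% of 7663 genes) and 3 higher (32.5%), with 4 and 4 after median-of-ratios or upper quartile scaling. Mag changed side under these scalings and under quantile normalization. At least 1.1-fold lower were Mog and Cldn11 (17.1% of all genes), and the median was -0.07. The wild-type ratio with age ran from -0.28 for Mog to 0.08 for Opalin.

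The genotype ratio at 29 weeks minus that at 12 weeks was above 0 for all 8 genes (50.8% of 7659 genes), above the equivalent of 1.1-fold for all 8 (20.4%) and above that of a value 25% higher for 4, Mog, Cldn11, Opalin and Cnp (3.56%). It ran from 0.16 for Mbp to 0.45 for Mog, with a median of 0.32 against 0.00 over all genes. Being below wild type at 12 weeks and above it at 29 weeks held for 6 of the 8 (Mbp, Mobp, Cldn11, Mal, Cnp and Mog) and for 17.5% of all genes.

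Other myelin proteins were described from a list of 25 genes, of which 20 had a row. At 29 weeks 13 were higher in 92Q and 4 lower, 6 by at least 1.1-fold higher and 0 by 1.1-fold lower, with a median log2 ratio of 0.07. Over all genes 49.5% were higher at 29 weeks and 15% by at least 1.1-fold. After median-of-ratios scaling the list had 13 higher and 7 lower, with a median of 0.0393. The tetraspanin Cd9 had the largest ratio, 35 in 92Q against 24 in wild type (0.53). Bcas1, a protein of newly myelinating oligodendrocytes, was 105 against 80 (0.39) and was also higher at 12 weeks, 85 against 75. The plasma membrane proteolipid Pllp was 49 against 38 (0.36), and the junction protein Jam3 14 against 12 (0.21). At 12 weeks 5 of the 20 were higher, 9 lower and 6 equal, with a median of 0.00. Median-of-ratios scaling gave 11 higher and 9 lower, because a shift of 0.0003 counts the 6 equal genes as higher. Upper quartile scaling gave 13 higher and 7 lower, with a median of 0.03 for the list and 0.03 over all genes.

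The enzymes and carriers of the oligodendrocyte were 18 measured genes of 20. At 12 weeks all 18 were lower in 92Q (median -0.11), against 36.7% of all genes. By more than rounding leaves 14 were lower (1433 of 7660 genes), and by at least 1.1-fold 6 were (8.02%). After upper quartile scaling 16 of the 18 were lower, and after quantile normalization 14. At 29 weeks 11 were higher and 4 lower (median 0.07), against 49.5% of all genes higher, and 10 were higher and 8 lower (median 0.0456) after median-of-ratios scaling. Enpp2, the lysophospholipase autotaxin, was 92 in wild type and 45 in 92Q at 12 weeks and 101 and 238 at 29 weeks, and it also stands on the choroid plexus list. The lipid carrier Apod was 182 and 179 at 12 weeks and 182 and 225 at 29 weeks, and gelsolin, Gsn, was 26 and 25, then 20 and 27. The protease Klk6 was 19 in wild type and 15 in 92Q at 12 weeks, and 15 in both genotypes at 29 weeks.

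Of 14 genes of myelin lipid synthesis 12 were measured. At 29 weeks 9 were higher in 92Q and 2 lower, with a median of 0.09, against 49.5% and 26.1% of all genes. At 12 weeks the median was 0.00. Cers2, which makes the very long chain ceramides of myelin, was 43 in wild type and 41 in 92Q at 12 weeks and 40 and 49 at 29 weeks. The lipid regulator Srebf1 was 16 and 17, then 19 and 24, and the glycolipid carrier Gltp 45 and 43, then 44 and 51. Ugt8a, the enzyme that makes galactosylceramide, was lower in 92Q at both ages, 23 against 26 and 22 against 24.

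Of 14 transcription factors of the lineage 11 had a row. At 29 weeks 8 were higher in 92Q, 7 of them by at least 1.1-fold, and 2 were lower, with a median of 0.15. Over all genes 49.5% were higher at 29 weeks, 15% by at least 1.1-fold, and 26.1% were lower. At 12 weeks the median of the list was 0.00. Olig1 and Olig2, which specify the lineage, were 72 against 57 and 16 against 12. Sox10, which drives myelin genes, was 30 against 27, its partner Sox8 22 against 18, and Myrf, the factor that switches on the mature programme, 21 against 18. Nkx6-2, a homeobox factor of myelinating cells, was 11 against 9, below 10 in the other 3 conditions, and owes its row to the 92Q value. The 2 lower genes were St18, at 31 against 35, and Id2, an inhibitor of differentiation that other cells express too, at 88 against 112. Tcf7l2 was 11 against 16 at 12 weeks and 19 in both genotypes at 29 weeks.

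Precursor markers had 7 rows of 15 named, and defining genes of that cell such as Pdgfra and Cspg4 had none. At 29 weeks 5 of the 7 were higher in 92Q (median 0.21), against 49.5% of all genes. By more than rounding leaves 4 were (2078 of 7666 genes). These were Olig1 and Olig2 again, Cacng4 at 26 against 22 and Lhfpl3 at 28 against 24. Ptprz1 was lower, 61 against 66, and Tnr was 10 in both genotypes. At 12 weeks 5 were higher as well (median 0.06), 3 of them by more than rounding leaves, against 32.1% of all genes higher. Receptors and adhesion proteins of the oligodendrocyte, 10 of 13, had medians of 0.04 at 12 weeks and 0.08 at 29 weeks (0.0496 after median-of-ratios scaling). None of these genes differed by 1.1-fold at either age. Over all genes 4.5% were 1.1-fold higher and 8.02% lower at 12 weeks, and 15% and 8.47% at 29 weeks. On the axon side, 14 of 15 genes of the node of Ranvier and paranode were measured. At 29 weeks 6 were higher and 6 lower (49.5% and 26.1% of all genes) with a median of 0.00. None reached 1.1-fold higher or lower (15% and 8.47% of all genes). The paranodal adhesion genes Cntn1 and Cntnap1 were 96 against 88 and 76 against 78.

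**Figure D3:**
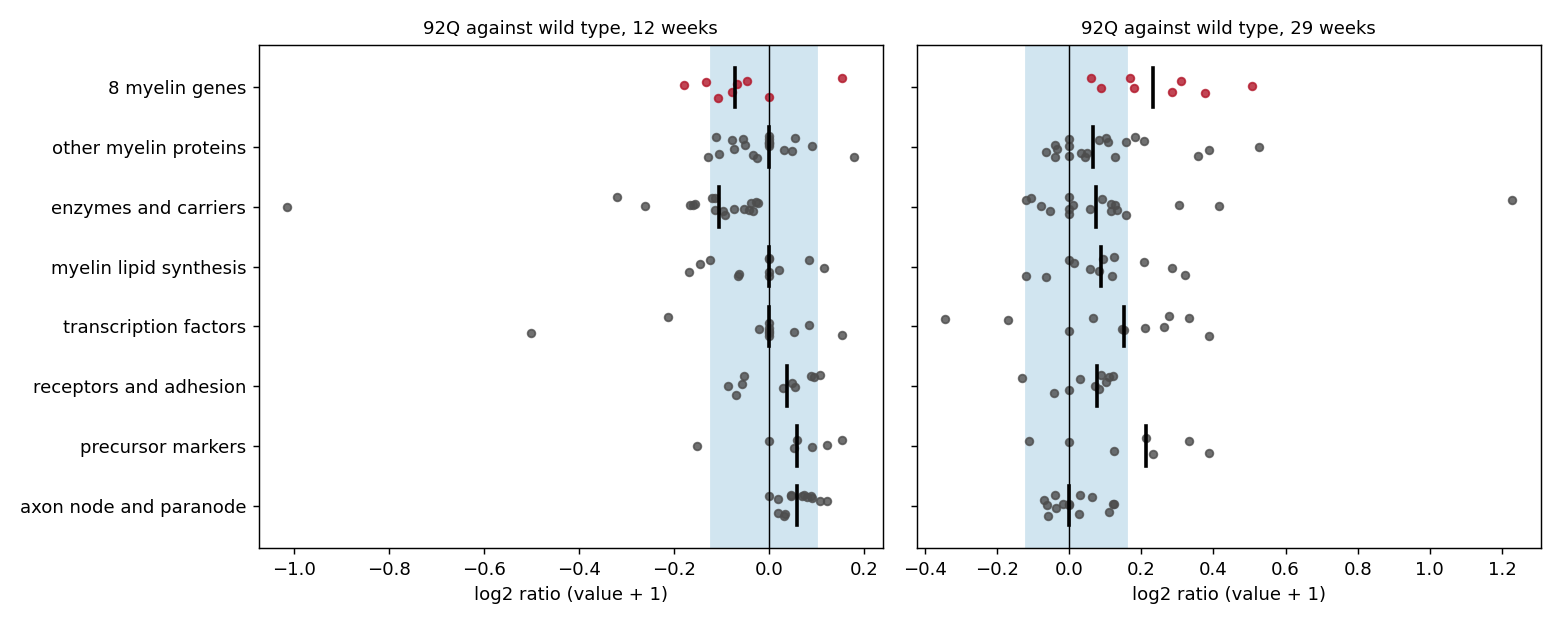
Log2 ratio of 92Q against wild type at 12 weeks (left) and 29 weeks (right) for every measured gene of 8 lists (y axis; points are genes with random vertical scatter, black ticks list medians, red the 8 myelin genes, shading the 10th to 90th percentile of all genes). At 29 weeks the median tick of the 8 genes stands at 0.23, that of the transcription factors at 0.15 and that of the axon node genes at 0.00; the far right point is Enpp2.

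Markers of other cells moved in the same conditions, and their part in the myelin values was not tested. The 12 Purkinje cell markers summed to 6234 in wild type and 4834 in 92Q at 12 weeks and to 5223 and 3217 at 29 weeks, and all 12 were lower in 92Q at both ages (10 of 12 at 12 weeks after quantile normalization, where the highest values tie). The 12 markers of granule neurons, the most numerous cells of the tissue, summed to 3246 and 3342, then 2920 and 2699. The 8 myelin genes summed to 3282 and 3124, then 3353 and 3636, a sum carried mostly by Mbp. The 10 measured microglia markers of 12 summed to 159 in both genotypes at 12 weeks and to 186 and 387 at 29 weeks. All 10 were higher in 29-week 92Q, and Cx3cr1, Trem2 and Cd68 reached 10 in that condition alone. Over all genes 36.7% were lower in 92Q at 12 weeks, and at 29 weeks 26.1% were lower and 49.5% higher.

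Markers of the choroid plexus, meninges, blood, endothelium, astrocytes with Bergmann glia, and Schwann cells were summed in the same way. The 7 measured choroid plexus markers of 10 summed to 456 and 65 at 12 weeks and 579 and 1711 at 29 weeks, with Kl and Sostdc1 listed at 0 in 12-week 92Q. Kcnj13, Clic6, Kl and Sostdc1 reached 10 in 29-week 92Q alone. Mbp and Mobp had the same order of the 4 conditions as these sums (12-week 92Q, 12-week wild type, 29-week wild type, 29-week 92Q, from low to high), with a far smaller range, and Cldn11 shared the lowest and the highest condition. Meningeal markers (5 of 9) summed to 1654 and 1347, then 1451 and 1663, and blood rows (3 rows for 7 names) to 132 and 133, then 126 and 179. The meningeal Slc13a4 and the haemoglobin row Hba-a1 also reached 10 in 29-week 92Q alone. Endothelial markers (4 of 10) summed to 67 in both genotypes at 12 weeks and to 63 and 66 at 29 weeks. The astrocyte and Bergmann glia sum was 2906 and 2647, then 2755 and 2603. Its largest part was Aldoc, 1284 and 1055, then 1227 and 924, and its genes did not move together. At 29 weeks 7 of the 12 were higher in 92Q and 5 lower (49.5% and 26.1% of all genes). Aldoc, Slc1a3 and Gdf10 were among the 5. Gfap was 235 in 29-week 92Q against 87 to 95 in the other conditions. Of 8 Schwann cell markers, the cells that make myelin in peripheral nerve, 2 had a row, Sox2 and Pmp22, both also made by other cells; Prx, a defining gene of peripheral myelin, had none, and the sum was 57 to 58 in every condition.

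**Figure D4:**
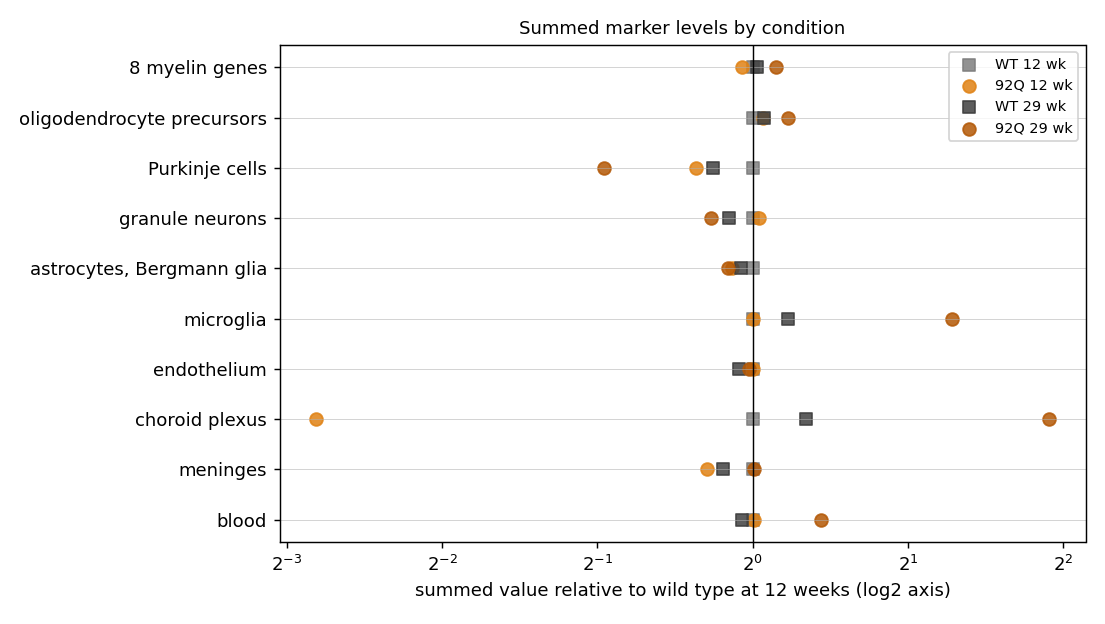
Summed value of each marker list relative to wild type at 12 weeks (x axis, log2 scale; y axis, lists; squares wild type, circles 92Q, darker at 29 weeks). The 8 myelin genes lie between 0.952 and 1.11, a far narrower range than the microglia (up to 2.43), choroid plexus (0.143 to 3.75) or Purkinje cell lists (down to 0.516).

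The genes whose course over the 4 conditions was most like the mean course of the 8 were sought among 1495 other genes with a mean of 50 or more, by the root mean square distance between centred log2 values. The 5 nearest were Mmd2, the actin gene Actb, Nbl1, the G protein subunit Gnai2 and the aldehyde reductase Akr1a1, at distances of 0.014 to 0.024. None of them is on a myelin or oligodendrocyte list. Actb, for example, was 397 and 387 at 12 weeks and 385 and 443 at 29 weeks. The nearest gene of those lists was the iron carrier Trf at rank 19, followed by Apod at rank 36 and Sirt2, a deacetylase of myelin, at rank 41. Cnp, the member nearest to the mean course, lay at 0.026, and 7 of the 1495 genes were as near or nearer. Opalin, the farthest, lay at 0.15, and 75.1% were as near or nearer. The share as near or nearer was 1.54% for Mag and 21.1% for Mog, with Mal, Cldn11, Mbp and Mobp between them. The 8 genes themselves set the mean course from which these distances were taken. With 4 points per gene, genes of other kinds were among the nearest. None of the 8 genes, and no gene of the oligodendrocyte and myelin lists, was among the 99 genes of the authors' deposited table of selected genes. With 99 selected genes beside 7667 gene rows, absence was the usual case for any gene.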

How the data were processed

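Per the labels' protocols, RNA extracted from cerebellum with TRIzol and cleaned on RNeasy columns was sequenced from TruSeq libraries as single-end reads of 50 bases. The submitters' processing notes name Bowtie 0.12.7, SAMtools 0.1.12a, Cuffdiff 1.3.0 and build mm10. The annotation, filter, normalization and strand setting behind the values: not given in the sources used here. Each deposited column is a normalized score, rounded to whole numbers, 1 per gene and condition, with a median of 22 in each column and column sums from 322446 to 333581. Every row reached 10 in some condition, and all 8 genes were at 17 or more in every condition. Of 7684 rows, 17 bore a date-like number for a name and were left out.

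Log2 ratios used a pseudocount of 1 for genes at 5 or more in one or both conditions, and low genes are understated on this scale. No test was possible. The steps were tested on simulated data. Genes were counted at 1.1-fold, 25% higher and 1.5-fold, and 16 further lists of myelin, lineage, axon and cell type marker genes were used. The members and lists were chosen with earlier results of these data known. Named were all 8 genes, up to 4 genes per other list with the largest genotype ratios, and the 5 genes nearest in course; other list members were named after their values were seen. Promoters were searched on both strands. Python 3.11.15, pandas 2.3.3 and numpy 2.4.6 were used. Other settings tried were a pseudocount of 0.1 or 5, no minimum or one of 20, and 3 scalings of the columns. Leaving out Opalin was chosen after seeing the data. Some genes of the lists are not reported here and were left out of the list counts.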

Additional observations from a re-analysis of the deposited data

Results flagged for a closer look

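For 6 genes the 92Q value lay below wild type at 12 weeks and above it at 29 weeks, in both cases by more than rounding leaves. Over all genes 17.5% were below and then above wild type by any amount. The share that were so by more than rounding leaves at both ages was not counted. The genotype log2 ratio at 29 weeks minus that at 12 weeks was 0.45 for Mog, 0.36 for Cldn11, 0.33 for Cnp, 0.30 for Mal, 0.17 for Mobp and 0.16 for Mbp. With 1 value per condition the difference was not tested. In the same columns the choroid plexus sum was 65 against 456 at 12 weeks and 1711 against 579 at 29 weeks.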

How the results depend on the processing

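The direction of the 8-gene median was kept in all 5 comparisons under all alternatives run. At 12 weeks the median between genotypes (-0.07) was -0.0390 after upper quartile scaling and -0.0313 after quantile normalization. At 29 weeks (0.23) it was 0.20 after median-of-ratios scaling and 0.18 without Opalin. With age in wild type (-0.07) it was -0.0518, -0.0343 and -0.0226 under median-of-ratios, upper quartile and quantile scaling, and -0.12 with a minimum value of 20 and without Opalin. With age in 92Q (0.21) it was 0.20 after median-of-ratios scaling and 0.23 after quantile normalization. At 12 weeks the count of genes at least 1.1-fold higher was 0 in place of 1 with a pseudocount of 5, a minimum value of 20 or without Opalin. With age in wild type the count lower was 1 in place of 2 after upper quartile or quantile scaling. The median of the astrocyte and Bergmann glia list with age in wild type turned from -0.06 to 0.00722 under quantile normalization. Of 277 recomputed ratios of single members, 215 stayed within the rounding range, and no ratio whose rounding range left out 0 changed sign. Mag with age in wild type, whose rounding range reached 0 (-0.01), was 0.00200, 0.0195 and 0.0469 under median-of-ratios, upper quartile and quantile scaling.

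Scaling moved the balance over all genes. Of genes past 1.1-fold, 36% were higher in 92Q at 12 weeks and 68.1% after upper quartile scaling. At 29 weeks 63.9% were higher and 46.4% after median-of-ratios scaling. With age in wild type 38.3% were higher, against 49.8% after median-of-ratios and 59.9% after upper quartile scaling. For the difference between ages 67.1% became 52% and 48.7% under those scalings. No paired analysis was possible because each condition has a single deposited value, and no library could be left out for the same reason. The unknown depth limits the genes with small values most, among them Opalin.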

Other observations

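Genes of the axon side differed between genotypes at 12 weeks by small amounts. Of the 14 measured genes of the node and paranode 13 were higher in 92Q and 0 lower, against 32.1% of all genes higher, with a median log2 ratio of 0.06. By more than rounding leaves 9 of the 14 were higher, against 867 of 7660 genes. None of the 14 reached 1.1-fold higher or lower (4.5% and 8.02% of all genes). Cntnap1, which anchors the paranodal junction, was 86 in 92Q against 79 in wild type, and Cntn2, an adhesion protein beside the paranode, 55 against 51. In the same comparison the 10 of 12 granule neuron markers that were higher had ratios of similar size (list median 0.07). The genotype ratio at 29 weeks minus that at 12 weeks was below 0 for 10 of the 14 node genes (median -0.05), against 2759 of 7659 genes compared. By more than rounding leaves it was for 7 of the 14 (922 of 7659 genes). Under each of the 3 scalings it was below 0 for 12 of the 14, with medians from -0.0828 to -0.0897. The scalings also moved the median over all genes, from 0.0038 to -0.0234 (median of ratios), -0.0296 (upper quartile) and 0.00 (quantile normalization). The same difference was above 0 for all 12 lipid synthesis genes (median 0.08), against 3892 of 7659 genes compared. By more than rounding leaves it was for 8 of the 12 (1678 of 7659 genes). Above 0 were 10 of the 12 after median-of-ratios or upper quartile scaling, with medians of 0.0501 and 0.0439, and 9 after quantile normalization.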
